A study of Mus musculus with 8 samples.

Results

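The claudins are a family of membrane proteins, and 10 of them were followed here in 2 mouse pancreatic tumors. The 10 genes were Cldn1, Cldn2, Cldn3, Cldn4, Cldn5, Cldn6, Cldn7, Cldn12, Cldn15 and Cldn18. They were taken by symbol, whatever their level, from the 33 claudin rows among the 27775 gene rows of each table. All 10 had at least 1 UMI (unique molecular identifier, the tag that counts a captured mRNA molecule) in the medium size tumor, and 9 did in the large size tumor, where Cldn1 had none. The tumors came from KPC mice, a model of pancreatic ductal adenocarcinoma whose alleles include LSL-Trp53R172H/+ and Pdx-1-Cre, in which the Pdx-1 promoter drives the Cre recombinase in the pancreatic lineage. Both tumors shared this genotype, and the labels name no treatment. The age of the animals is not given in the sources used here. Cells of each freshly dissociated tumor were captured in droplets for 3′ single-cell RNA sequencing. The labels list 4 technical replicates per tumor, which are pooled in 1 table, so that each size is 1 sample. No test between sizes was therefore possible, and mouse, tumor size and sequencing depth cannot be told apart.

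Claudins span the cell membrane and join with claudins of the neighbouring cell to form the strands of the tight junction, the seal at the upper border of an epithelial sheet. Some members, such as Cldn1, Cldn3, Cldn4 and Cldn7, mainly tighten the seal, while Cldn2 and Cldn15 form pores that let small cations and water through. Cldn5 is the claudin of blood vessel endothelium, Cldn6 is used by embryonic epithelia and is low in most adult tissues, and Cldn18 belongs to stomach and lung. Normal pancreatic ducts express several of the sealing claudins, and Cldn18 in its gastric form is a known feature of pancreatic precursor lesions.

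The positions of the genes were taken from the GENCODE M21 annotation of GRCm38. Cldn3 (chr5:134986214-134987472, plus strand) and Cldn4 (chr5:134945119-134946934, minus strand) lie 39.3 kb apart with 0 protein-coding genes between them. Cldn15 (chr5:136966616-136975858, plus strand) and Cldn12 (chr5:5489537-5514958, minus strand) lie elsewhere on the same chromosome. Cldn6 (chr17:23679249-23682446, plus strand) lies 137 bases from its neighbour Cldn9. The other members are Cldn1 (chr16:26356642-26371841, minus strand), Cldn5 (chr16:18776847-18778262, plus strand), Cldn2 (chrX:139800828-139811386, plus strand), Cldn7 (chr11:69964779-69967885, plus strand) and Cldn18 (chr9:99689461-99717267, minus strand). An opposite-strand gene overlaps Cldn3 (Wbscr25) and Cldn18 (Gm16004). Whether the counting used strand, and so separated the reads of these pairs, is not given in the sources used here.

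The promoters of Cldn3 and Cldn4 are shown because these neighbours had a like pattern across the epithelial clusters described further on. The letters CACCTG, or CAGGTG on the other strand, are an E-box that repressors of the Snail and Zeb families are known to bind. Of 32851 RefSeq promoters on GRCm38.p6, each with 250 bases before and 50 after the start, 6640 (20.2%) held these letters. Of the 14 promoters listed for the 10 claudins 4 did (28.6%), each of a different gene. The matches lay at +32 in Cldn3, at -14 and +12 in Cldn4, at -93 and +41 in Cldn6, and at -97 and -57 of a start of Cldn7. The 120 bases before each start are given 5′ to 3′ on the strand of the gene, chr5:134986094-134986213 on the plus strand for Cldn3 and chr5:134946935-134947054 on the minus strand for Cldn4, with the motif in capitals.
Cldn3: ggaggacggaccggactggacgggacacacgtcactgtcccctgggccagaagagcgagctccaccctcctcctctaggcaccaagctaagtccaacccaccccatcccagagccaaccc
Cldn4: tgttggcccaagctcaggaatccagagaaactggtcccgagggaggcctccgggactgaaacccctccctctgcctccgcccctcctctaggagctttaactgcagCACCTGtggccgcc
The Cldn3 stretch holds no match, which says only that these letters are not in this window, and a match is a description of the sequence and not a site of binding.

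The medium tumor had 2812 cells with a median of 5456.5 UMIs and the large tumor 1533 cells with a median of 1037.0. A level is given as CPM, the UMIs of a gene per 1000000 UMIs of all genes in a group of cells, with an exact 95% Poisson interval. A share of cells has an exact binomial interval where one is given. These intervals cover counting error only. A sum of 0 UMIs allows up to 3, so a claudin unseen in any cell could reach 0.148 CPM in the medium and 1.34 CPM in the large tumor. The ductal marker Krt19 stood at 1578 CPM in the medium and 361 CPM in the large tumor, and Epcam at 1008 and 979 CPM, so that epithelial tissue was present in both. The tables shared 5 cell barcodes.

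Cells were clustered within each tumor without any claudin, and clusters were named from marker lists that hold no claudin. Of the 14 clusters of the medium tumor 8 were epithelial-like and held 2324 cells, 82.6% of all (81.2% to 84.0%). The rest were monocyte/macrophage-like (238 cells), mesothelial-like (74), stromal-like (67), endothelial-like (39) or unnamed (70). The unnamed cluster had 10 of 10 epithelial and 8 of 11 macrophage markers. Of the 10 clusters of the large tumor 7 were epithelial-like and held 1219 cells, 79.5% (77.4% to 81.5%), beside 253 macrophage-like, 50 stromal-like and 11 endothelial-like cells. One epithelial-like cluster of each tumor carried only 3 of 10 epithelial markers. Whether all epithelial-like cells were carcinoma cells was not tested.

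Most of the claudins were epithelial. A level was called higher when it was at least 2-fold above that of all other cells with an interval above 1, among genes with at least 50 UMIs. Over this minimum were 8 claudins in the medium tumor, and 7 of them were called, against 12.1% of all 11205 genes counted. Cldn1 and Cldn15 were below the minimum, and Cldn5 passed it only through endothelial-like cells. Cldn7 stood at 292 CPM in epithelial-like cells and at 72.4 CPM in other cells, a ratio of 4.04 (3.46 to 4.75). Cldn6 stood at 207 against 29.9 CPM, a ratio of 6.91 (5.43 to 8.93), and Cldn18 at 48.2 against 6.70 CPM, a ratio of 7.20 (4.34 to 12.9). The ratios of the other called claudins were 3.64 for Cldn2, 3.20 for Cldn3, 3.22 for Cldn4 and 2.73 (1.29 to 6.89) for Cldn12. The ratios of the epithelial markers themselves ran from 3.21 for Epcam to 4.85 for the keratin Krt7. Cldn6 and Cldn18 stood above that range, Cldn2, Cldn4 and Cldn7 within it, Cldn3 at its lower end and Cldn12 below it.

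The other cells were a mixture, and the ratios depended on which of them were used. Against macrophage-like cells alone, Cldn6 was 27.2-fold, Cldn3 15.0-fold, Cldn2 14.5-fold, Cldn7 13.5-fold and Cldn4 9.71-fold higher in the medium tumor, and Cldn18, with no UMI in macrophage-like cells, at least 14.8-fold. Without the unnamed cluster the ratio to the other cells was 7.44 for Cldn2, 4.76 for Cldn3 and 13.0 for Cldn18. The call of Cldn12, a widely expressed claudin, ended at a clustering resolution of 1.2, with a ratio of 1.43 (0.923 to 2.31).

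Cldn2, Cldn3, Cldn4, Cldn6 and Cldn7 were also counted in each other class of the medium tumor, and so were the epithelial markers. In macrophage-like cells of the medium tumor Cldn2, Cldn3, Cldn4, Cldn6 and Cldn7 stood at 3.68% to 10.3% of their epithelial-like level, and the 10 epithelial markers at 4.96% to 10.7% (median 6.37%). In endothelial-like cells Cldn2, Cldn3, Cldn4, Cldn6, Cldn7 and Cldn18 stood at 25.5% to 56.2% and the epithelial markers at 33.2% to 61.0% (median 40.8%). In stromal-like cells Cldn2, Cldn3, Cldn4, Cldn6 and Cldn7 stood at 11.5%, 15.6%, 15.9%, 5.83% and 8.24%, beside 6.37% to 27.3% for the epithelial markers (median 12.7%). The claudins were thus near the level of the epithelial markers in these 3 classes, and these counts were not read as expression by those cells. In mesothelial-like cells Cldn3 stood at 48.2% of its epithelial-like level (34.4% to 65.8%), above the 14.7% to 32.8% of the epithelial markers, while Cldn2, Cldn4 and Cldn7, at 19.4% to 29.6%, lay within that range and Cldn6 was at 9.88% (4.26% to 19.5%). Cldn18 had no UMI there, which allows up to 19.6%. In the unnamed cluster Cldn2 stood at 103%, Cldn3 at 86.2%, Cldn4 at 84.1%, Cldn7 at 77.0%, Cldn18 at 47.3% and Cldn6 at 44.1% of the epithelial-like level, beside 54.9% to 98.8% for the epithelial markers.

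Over the minimum were 7 claudins in the large tumor, and 6 of them were called higher in epithelial-like cells, against 18.3% of 4829 genes. The other cells held 1 UMI of Cldn2 and 0 of Cldn6, so the ratios were wide, at 38.6 (6.88 to 1532) for Cldn2 and at least 6.82 for Cldn6. Cldn3 had a ratio of 16.4 (4.48 to 136), Cldn7 of 32.1 (5.69 to 1272), Cldn4 of 9.80 (2.66 to 81.8) and Cldn18 of 10.5 (4.05 to 38.7). Cldn15, at 3.79 (0.999 to 32.1), was not called. At a resolution of 1.2 the calls of Cldn18 (1.56) and Cldn6 (1.78) ended. Without the cells in the highest 5% of Scrublet doublet scores the ratio of Cldn2 was 2.19, below its counting interval. The heat map of claudin levels by cluster sets the 10 genes side by side in both tumors.

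**Figure D1:**
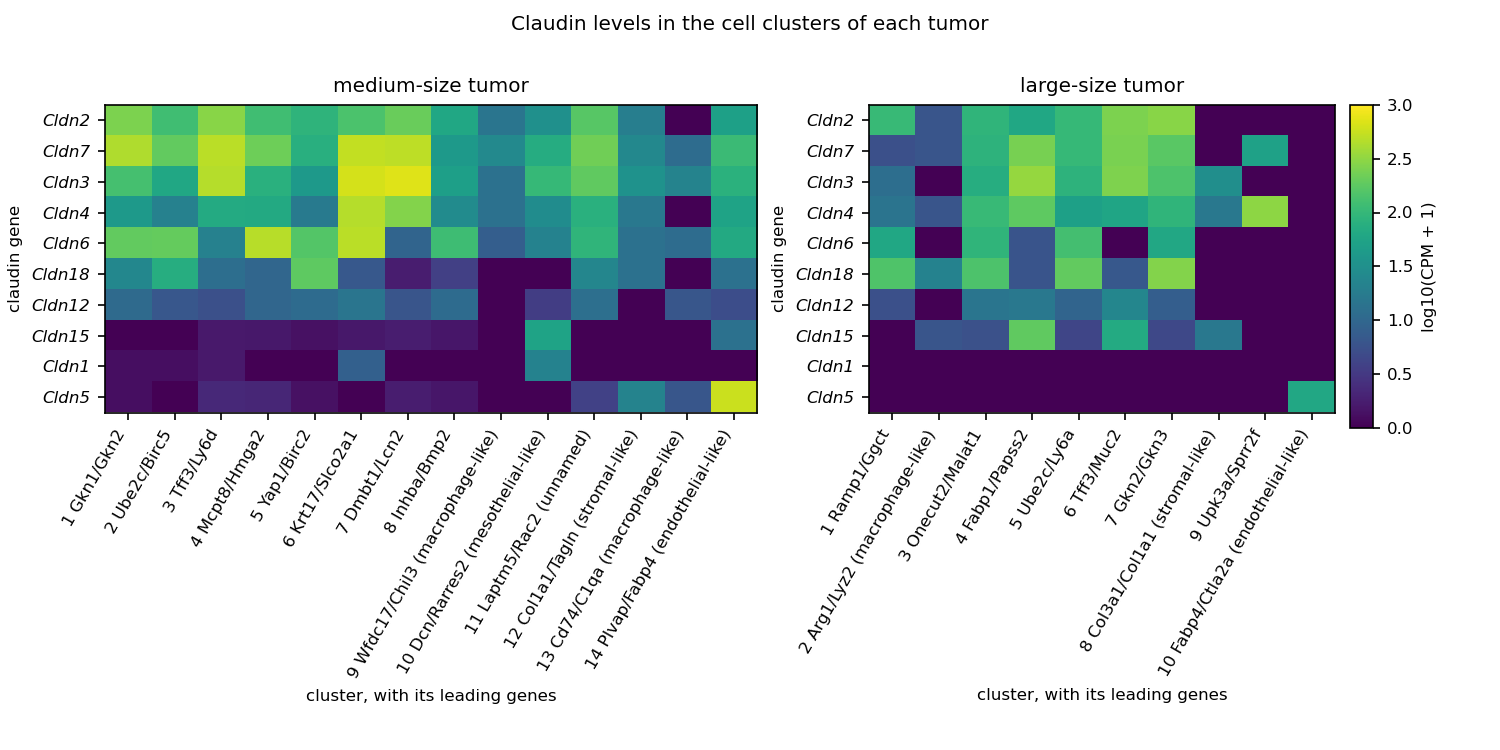
Level of the 10 claudins as log10(CPM + 1), shown by colour, in each of the 14 clusters of the medium and the 10 clusters of the large tumor, with its leading genes, and its class where that is not epithelial-like, on the horizontal axis. Cldn3 reaches 709 CPM in cluster 7 of the medium tumor, Cldn5 stands in the endothelial-like cluster of the medium tumor and Cldn15 in cluster 4 of the large tumor.

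The share of cells with a UMI followed the depth of the cells. Of the epithelial-like cells of the medium tumor 62.8% had a UMI of Cldn7, 55.3% of Cldn2, 44.7% of Cldn6, 43.2% of Cldn3, 25.8% of Cldn4, 14.5% of Cldn18 and 6.11% of Cldn12. Macrophage-like cells were shallower, at a median of 3516.0 UMIs against 5986.0, and their share was 6.30% for Cldn7, 3.78% for each of Cldn2, Cldn3 and Cldn4, 2.94% for Cldn6 and 0% for Cldn18. With every cell thinned to 2500 UMIs the epithelial-like shares were 44.3% for Cldn7, 30.5% for Cldn2, 28.0% for Cldn6, 31.6% for Cldn3, 14.5% for Cldn4, 6.93% for Cldn18 and 2.32% for Cldn12. The macrophage-like shares of the first 5 were then 3.36%, 2.52%, 1.26%, 2.10% and 2.52%. These 5 claudins were thus in more epithelial-like than macrophage-like cells at equal depth.

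The epithelial-like clusters of the medium tumor differed in their claudins. A claudin was called variable when its highest and lowest epithelial-like cluster of at least 30 cells were at least 4-fold apart and their intervals did not meet. By this rule 6 of 7 claudins of the medium tumor were called, against 28.9% of 10674 genes, and in the large tumor 7 of 7, against 38.1% of 4337 genes. Cldn15, among those of the large tumor, passed the minimum only through the cluster in which it was highest, so its call is a description. The clusters are named here by the genes that led them. Those of the medium tumor were led by the gastrokines Gkn1 and Gkn2 (518 cells), the mitotic genes Ube2c and Birc5 (296, the cycling cluster), Tff3 and Reg1 (291), Mcpt8 and Hmga2 (271), Yap1 and Birc2 (260), Krt17 and Tnc (232), Dmbt1 and Sftpd (230), and Inhba and Bmp2 (226, with 3 of 10 epithelial markers).

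Cldn3, a sealing claudin, was highest in the clusters led by Dmbt1, at 709 CPM (665 to 755), and Krt17, at 647 CPM (610 to 686), whose intervals overlapped. It then stood at 462 CPM (429 to 496) in the Tff3-led cluster and at 128 CPM (116 to 140) in the gastrokine-led cluster. In the other 4 clusters it stood between 40.1 CPM (33.0 to 48.4), in the Yap1-led cluster, and 79.0 CPM (66.6 to 93.1). The fold between the highest and the lowest cluster was 17.7.

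Cldn4, its neighbour on the chromosome and also a sealing claudin, had a narrower peak. It stood at 467 CPM (435 to 500) in the Krt17-led cluster and at 275 CPM (247 to 304) in the Dmbt1-led cluster. No other epithelial-like cluster was above the 66.4 CPM (54.4 to 80.2) of the Tff3-led cluster, and the Yap1-led cluster was lowest at 16.1 CPM (11.7 to 21.5). The Krt17-led cluster held 47.9% of all epithelial-like Cldn4 UMIs and 9.74% of all epithelial-like UMIs. Cldn4 was second among the leading genes of that cluster although it took no part in the clustering.

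Cldn7, a sealing claudin of the sides of epithelial cells, was high in 4 clusters. It stood at 535 CPM (502 to 571) in the Krt17-led, 504 CPM (466 to 543) in the Dmbt1-led, 494 CPM (461 to 530) in the Tff3-led and 444 CPM (423 to 467) in the gastrokine-led cluster. Neighbours in this order overlapped. The cycling cluster, at 188 CPM (174 to 203), and the Mcpt8-led cluster, at 215 CPM (194 to 237), formed a middle level. The Yap1-led cluster had 77.3 CPM (67.3 to 88.5) and the Inhba-led cluster 40.2 CPM (31.6 to 50.4), 13.3-fold below the highest. Without the Inhba-led cluster the fold was 6.92.

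Cldn1, the main sealing claudin of the epidermis, was near the limit of counting. Of its 16 UMIs in epithelial-like cells 13 lay in the Krt17-led cluster (81.2%), a level of 7.39 CPM (3.93 to 12.6). Its other 8 UMIs lay in the mesothelial-like cluster, at 20.4 CPM (8.82 to 40.3).

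Cldn2, the cation pore of leaky epithelia, varied less than the sealing claudins. It was highest in the Tff3-led cluster, at 294 CPM (268 to 322), and the gastrokine-led cluster, at 255 CPM (238 to 272), whose intervals overlapped. The Dmbt1-led cluster followed with 204 CPM (181 to 230) and the Krt17-led with 139 CPM (122 to 158), and the Inhba-led cluster was lowest with 59.5 CPM (49.0 to 71.7). The fold was 4.94, and 3.36 without the Inhba-led cluster, which ends the call.

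Cldn6, the claudin of embryonic epithelium, divided the clusters in another way. It stood at 489 CPM (457 to 523) in the Krt17-led and at 470 CPM (439 to 503) in the Mcpt8-led cluster, where it was the second leading gene, and these overlapped. The cycling cluster had 194 CPM (179 to 209), the gastrokine-led 191 CPM (177 to 206), the Yap1-led 158 CPM (143 to 174) and the Inhba-led 117 CPM (102 to 134). The Tff3-led cluster had 19.8 CPM (13.6 to 28.0) and the Dmbt1-led 8.21 CPM (4.10 to 14.7), a fold of 59.6 below the highest. The clusters lowest in Cldn6 were thus among the 3 highest in Cldn3.

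Cldn18, the gastric claudin, stood at 177 CPM (161 to 193) in the Yap1-led cluster, where it was the fourth leading gene. The cycling cluster had 73.5 CPM (64.8 to 83.1) and the gastrokine-led cluster, which carried gastric pit genes, had 23.4 CPM (18.6 to 29.1). The Dmbt1-led cluster had 1 UMI, 0.746 CPM (0.0189 to 4.16). The Yap1-led cluster held 55.6% of the epithelial-like Cldn18 UMIs and 15.2% of all epithelial-like UMIs. Yap1 (chr9:7931999-8004596) and Birc2 (chr9:7818227-7837064) lie on the same chromosome as Cldn18, far from it.

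Cldn12 varied less than the fold set for a call. It ran from 4.34 CPM in the Tff3-led to 13.6 CPM (8.74 to 20.3) in the Krt17-led cluster, a fold of 3.14. The plot of claudin levels by epithelial-like cluster shows the 6 claudins with enough UMIs.

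**Figure D2:**
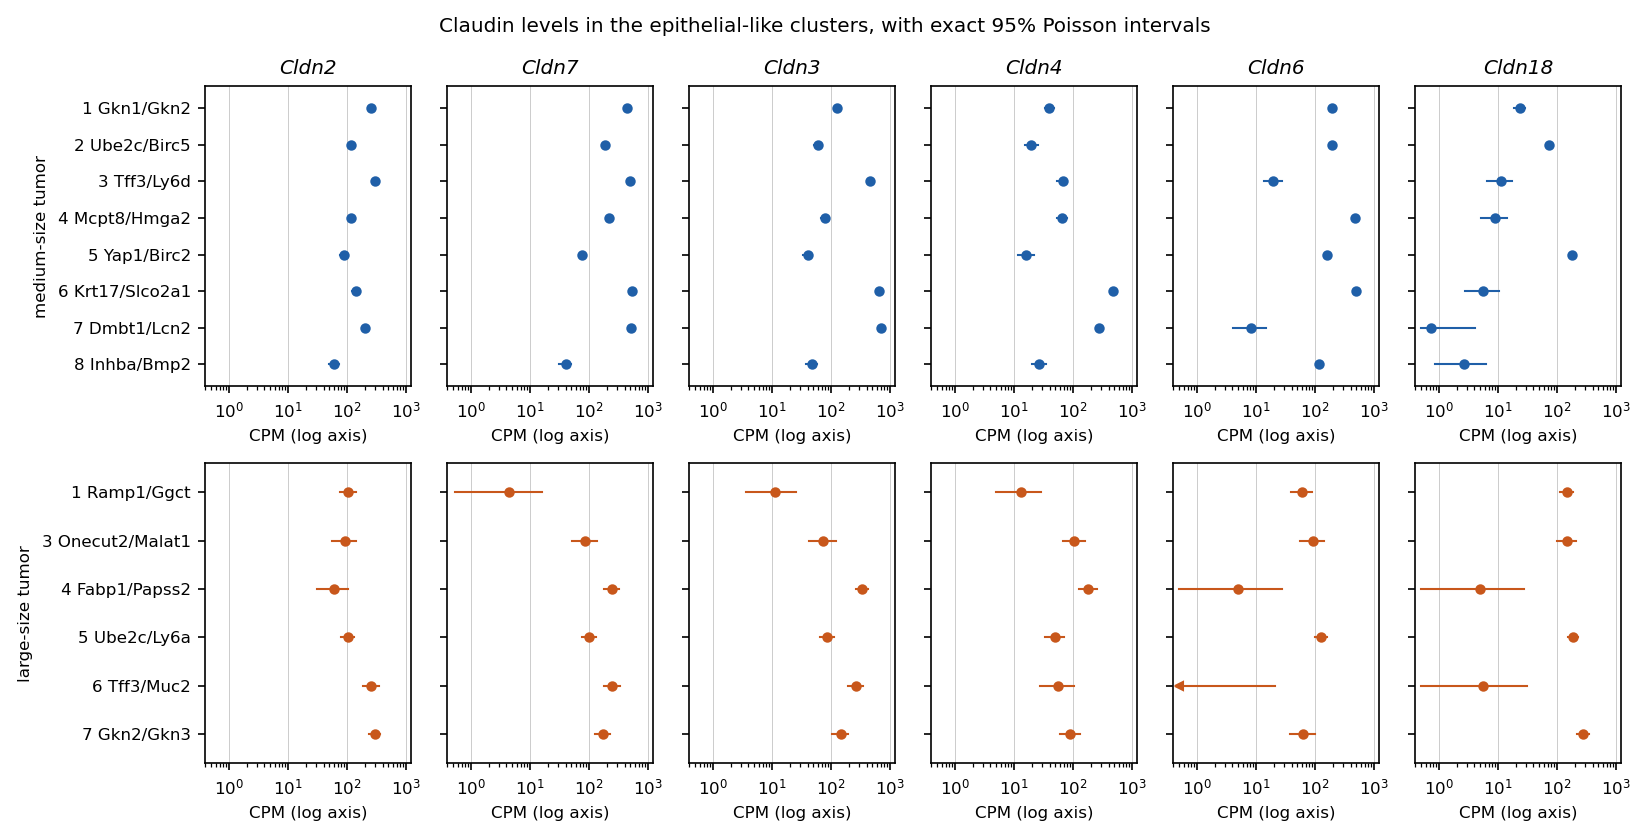
Level in CPM, on a logarithmic axis, of 6 claudins in the epithelial-like clusters of at least 30 cells, 8 in the medium and 6 in the large tumor, with points for the level, bars for the exact 95% Poisson interval and arrows for 0 UMIs. Cldn4 peaks in the Krt17-led cluster of the medium tumor at 467 CPM, and Cldn6 is at 8.21 CPM in the Dmbt1-led cluster, where Cldn3 is at 709 CPM.

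The epithelial-like clusters of the large tumor were led by Ramp1 and Ggct (276 cells, with 3 of 10 epithelial markers), Onecut2 and Malat1 (227), the enterocyte genes Fabp1 and Guca2b (217), the mitotic genes Ube2c and Cenpa (190, the cycling cluster), the goblet cell genes Tff3 and Muc2 (152), and Gkn2 and Tff1 (139). A cluster of 18 cells led by Upk3a and Sprr2f was too small for the comparison. Its Cldn4 stood at 311 CPM from 6 UMIs.

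The sealing claudins of the large tumor were highest in the Fabp1-led or Muc2-led cluster and lowest in the Ramp1-led cluster. Cldn3 stood at 336 CPM (261 to 427) in the Fabp1-led, 260 CPM (191 to 347) in the Muc2-led and 146 CPM (105 to 197) in the Gkn2-led cluster, and at 11.2 CPM (3.62 to 26.0) in the Ramp1-led. Cldn7 stood at 249 CPM (181 to 334), 241 CPM (178 to 319) and 170 CPM (126 to 225) in the Muc2-led, Fabp1-led and Gkn2-led clusters, and at 4.46 CPM (0.540 to 16.1, 2 UMIs) in the Ramp1-led. Cldn4 was at 181 CPM (127 to 250) in the Fabp1-led cluster, 105 CPM (66.7 to 158) in the Onecut2-led and 13.4 CPM (4.91 to 29.1) in the Ramp1-led. The folds were 30.1 for Cldn3, 55.8 for Cldn7 and 13.5 for Cldn4. Without the Ramp1-led cluster they were 4.60, 2.87 and 3.67, so that the calls of Cldn7 and Cldn4 rest on it.

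The pore-forming claudins had opposite places in the Fabp1-led cluster. Cldn2 was highest in the Gkn2-led, at 292 CPM (233 to 362), and Muc2-led cluster, at 255 CPM (186 to 341), and lowest in the Fabp1-led cluster, at 60.2 CPM. Cldn15, the sodium pore of the small intestine, had 37 of its 53 epithelial-like UMIs in the Fabp1-led cluster, at 186 CPM (131 to 256), and 12 in the Muc2-led cluster, at 67.9 CPM (35.1 to 119). It had none in the Ramp1-led cluster, at least 27.7-fold below the Fabp1-led, and it passed the minimum of 50 UMIs only through the Fabp1-led cluster. In the medium tumor 21 of the 30 Cldn15 UMIs lay in the mesothelial-like cluster, at 53.6 CPM (33.2 to 82.0). There it was in 24.3% of the cells, and in 14.9% after thinning to 2500 UMIs.

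Cldn6 and Cldn18 were low in the enterocyte-led and goblet-led clusters. Cldn6 stood at 126 CPM (99.8 to 158) in the cycling cluster, 91.5 CPM in the Onecut2-led, 62.6 CPM in the Gkn2-led and 60.2 CPM (39.7 to 87.7) in the Ramp1-led cluster, with 1 UMI in the Fabp1-led (5.02 CPM) and none in the Muc2-led, which allows up to 17.0 CPM. Cldn18 stood at 275 CPM (218 to 342) in the Gkn2-led, 187 CPM (154 to 225) in the cycling, 147 CPM (114 to 187) in the Ramp1-led and 146 CPM (100 to 207) in the Onecut2-led cluster, and at 5.02 and 5.66 CPM in the Fabp1-led and Muc2-led clusters. Without these clusters, the ones with at least 2 enterocyte or goblet genes among their leading genes, the fold was 1.88 for Cldn18, 2.10 for Cldn6 and 3.20 for Cldn2, all below the fold set for a call.

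Cldn5 was the one claudin over the minimum that was lower in epithelial-like cells of the medium tumor, with a ratio to other cells of 0.00674 (0.00286 to 0.0136). Of its 155 UMIs 138 lay in the endothelial-like cluster, at 567 CPM (476 to 670), in 71.8% of the 39 cells and in 53.8% after thinning. The stromal-like cluster had 7 UMIs, 21.1 CPM, and all epithelial-like cells together 8, 0.443 CPM. The 11 endothelial-like cells of the large tumor had 1 UMI, at 62.6 CPM, a ratio to the endothelial-like cluster of the medium tumor of 0.110 (0.00278 to 0.626) from few cells of 1 tumor per size.

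Across the epithelial-like clusters some claudins went together and some apart. Pearson's r of log2(CPM + 10) between Cldn3 and Cldn4 was 0.89 over the 8 clusters of the medium and 0.80 over the 6 of the large tumor, and between Cldn3 and Cldn7 it was 0.84 and 0.98. For Cldn3 and Cldn6 it was -0.44 and -0.66, and for Cldn3 and Cldn18 -0.60 and -0.66. Cldn2 with Cldn7 gave 0.89 in the medium and 0.26 in the large tumor, and Cldn6 with Cldn18 gave 0.25 and 0.95. These are descriptions of few clusters, which share a library within each tumor.

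**Figure D3:**
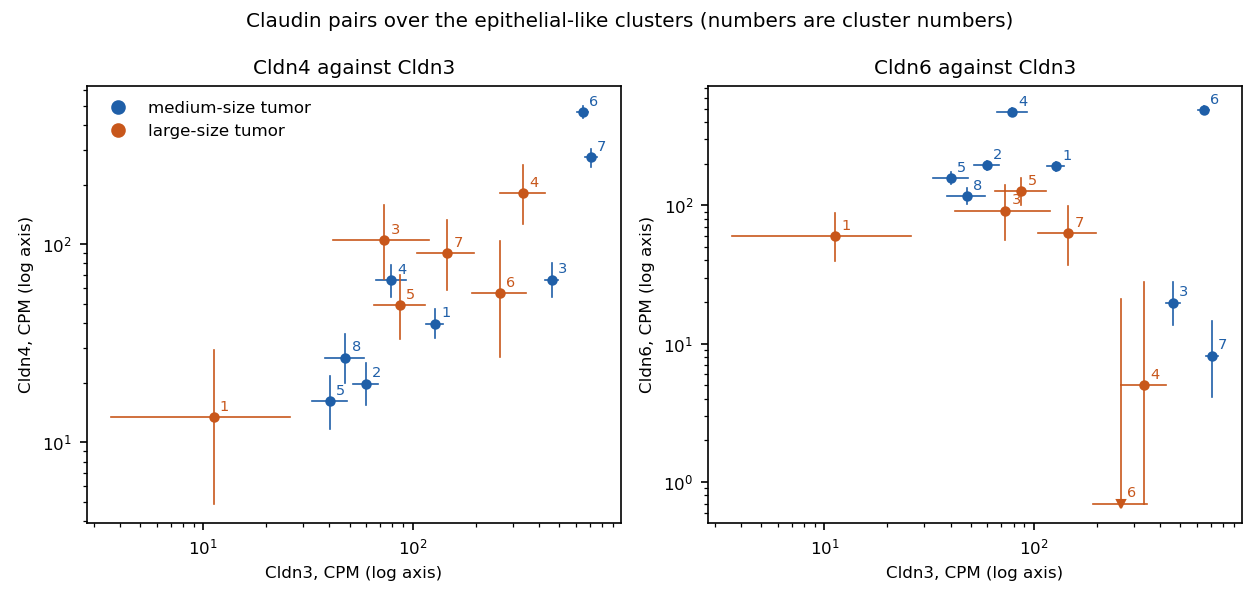
Level of Cldn4 and of Cldn6 on the vertical axes against that of Cldn3 on the horizontal axes, in CPM on logarithmic axes, with a point for each epithelial-like cluster of at least 30 cells in the medium and the large tumor. Cldn4 and Cldn3 are both high in the Krt17-led and Dmbt1-led clusters (r 0.89 over the medium and 0.80 over the large tumor for log2 of CPM + 10), while the Tff3-led cluster has Cldn3 at 462 and Cldn4 at 66.4 CPM, and the clusters lowest in Cldn6 are among those high in Cldn3.

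Cldn3 was also paired with Cldn4, Cldn7 and Cldn6 cell by cell in the medium tumor, with each cell thinned to 2500 UMIs. Cldn4 was found in 32.0% of the epithelial-like cells that had Cldn3 and in 6.42% of those that did not, and Cldn7 in 68.7% and 33.0%. Cldn6 was found in 25.7% and 29.1%, but within 5 of the 8 clusters its share was higher in cells with Cldn3, with 65.9% and 47.4% in the Mcpt8-led and 33.3% and 14.9% in the Inhba-led cluster at the widest. Within the Krt17-led cluster the shares with Cldn4 were 59.0% and 50%, within the Dmbt1-led cluster 36.9% and 25.5%, and within the Tff3-led cluster 13.0% and 8.77%. The gap was wider within the Mcpt8-led cluster, with 34.1% and 5.22%, the cycling cluster, with 19.4% and 3.02%, and the Yap1-led cluster, with 22.2% and 2.39%. It was 16.7% and 4.98% within the gastrokine-led and 12.5% and 2.48% within the Inhba-led cluster, so that the share was higher in cells with Cldn3 in each of the 8 clusters, in some of them from few cells. Among macrophage-like cells 0.420% had both Cldn3 and Cldn4.

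The number of different claudins per cell also varied. At 2500 UMIs 20.2% of epithelial-like cells of the medium tumor had no listed claudin, 21.9% had at least 3, and the highest number was 6. Among macrophage-like cells 90.3% had none. In the Krt17-led cluster 1.72% had none and 63.8% at least 3, and in the Dmbt1-led cluster 3.91% and 36.5%. The other end was the Inhba-led cluster, where 59.3% had none and 2.21% at least 3, followed by the Yap1-led with 34.2% and 6.54%. At 500 UMIs 69.9% of epithelial-like cells of the large tumor had no listed claudin, with 85.9% in the Ramp1-led, 51.1% in the Gkn2-led and 98.4% in the macrophage-like cluster.

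Between the tumors, Cldn18 was higher and Cldn6 and Cldn7 were lower in the epithelial-like cells of the large tumor. With the 2-fold rule 2 of 8 claudins were higher in the large tumor, against 6.86% of 10879 genes, and 2 of 8 lower, against 19.0%. Cldn15 had 53 UMIs in the large and 6 in the medium tumor, a ratio of 81.5 (35.0 to 232) of the levels in CPM. It passed the minimum of 50 UMIs only through the tumor in which it was high, so its call is a description, and without it 1 of 7 claudins was higher. Cldn18 stood at 150 CPM in the large and 48.2 CPM in the medium tumor, a ratio of 3.10 (2.71 to 3.55). Cldn6 stood at 73.0 against 207 CPM, a ratio of 0.353 (0.297 to 0.417), and Cldn7 at 114 against 292 CPM, a ratio of 0.391 (0.341 to 0.447). Cldn3, at 117 against 212 CPM, had a ratio of 0.552 (0.481 to 0.631), and Cldn4, at 69.9 against 94.9 CPM, one of 0.737 (0.614 to 0.877). Cldn2 had 0.874 (0.769 to 0.990) and Cldn12 1.14 (0.667 to 1.84), and the median of all genes was 0.867. Of the epithelial markers, the keratins, Spint2, Muc1, Elf3 and Cdh1 were also lower in the large tumor. Krt7 stood at 257 against 1419 CPM, Muc1 at 99.6 against 269 CPM and Cdh1 at 162 against 244 CPM. Epcam, at 1108 against 1091 CPM, and Tspan8, at 1232 against 704 CPM, were not lower. With 1 tumor per size these are differences between these 2 libraries.

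The ratios were also computed without the clusters that had at least 2 enterocyte or goblet genes among their leading genes, which were the Tff3-led cluster of the medium and the Fabp1-led and Muc2-led clusters of the large tumor. Without them Cldn15 was below the minimum of 50 UMIs, which left Cldn18 as the claudin called higher, with a ratio of 3.55. Cldn7 was then at 0.306 and Cldn3 at 0.391. Cldn18 was seen in 14.5% of the medium and 16.3% of the large epithelial-like cells, whose depths differ, Cldn6 in 44.7% and 8.94%, Cldn7 in 62.8% and 14.8%, and Cldn4 in 25.8% and 9.43%. With the cells of both tumors thinned to 500 UMIs, 1.29% of the medium and 5.17% of the large epithelial-like cells had Cldn18, 8.65% and 2.95% had Cldn6, 13.4% and 5.82% had Cldn7, and 4.17% and 4.27% had Cldn4. Thinning thus left Cldn18 in more and Cldn6 and Cldn7 in fewer cells of the large tumor. Unthinned, 0.791% of its macrophage-like cells had Cldn18, 0.395% Cldn4, 0.395% Cldn7 and 0% Cldn6.

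Clusters led by the same genes were also compared. The Gkn1-led cluster of the medium and the Gkn2-led of the large tumor shared 5 leading genes. Cldn18 stood at 23.4 CPM in the first and 275 CPM in the second, a ratio of 11.8 (8.51 to 16.2). Cldn4 had a ratio of 2.27 (1.43 to 3.47), Cldn6 of 0.328 (0.193 to 0.523) and Cldn7 of 0.383 (0.282 to 0.510), while the intervals of Cldn2 (0.906 to 1.44) and Cldn3 (0.812 to 1.57) held 1. In the cycling clusters, which shared 4 leading genes, Cldn18 had a ratio of 2.55 (2.02 to 3.19), Cldn4 of 2.49 (1.56 to 3.87), Cldn3 of 1.46 (1.06 to 1.98), Cldn6 of 0.652 (0.509 to 0.827) and Cldn7 of 0.533 (0.403 to 0.693). Cldn18 was thus higher and Cldn6 and Cldn7 lower in the large tumor in the matched clusters too. Cldn4, at 0.737 over all epithelial-like cells, stood above 1 in both matched pairs.

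**Figure D4:**
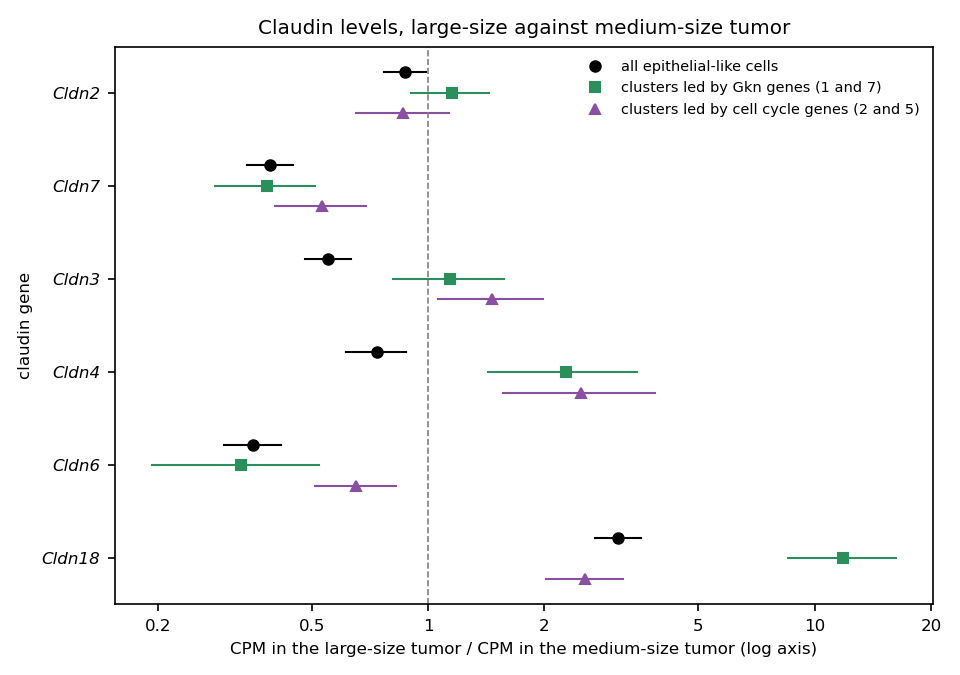
Ratio of CPM in the large to that in the medium tumor, on a logarithmic axis, for 6 claudins, with exact 95% intervals, over all epithelial-like cells, over the clusters led by gastrokines and over the cycling clusters. Cldn18 lies above 1 and Cldn6 and Cldn7 below 1 in all 3 comparisons, and Cldn4 lies at 0.737, 2.27 and 2.49.

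Loss of tight junctions is a textbook part of epithelial-mesenchymal transition. Epithelial-like cells were therefore ranked within each tumor by their share of UMIs from 12 mesenchymal genes (Vim, Cdh2, Zeb1, Zeb2, Snai1, Snai2, Twist1, Fn1, Loxl2, Wnt5a, Tgfb1 and Sparc) and divided into 5 equal groups. The median share was 0 in the lowest 2 groups of the large tumor, whose order rests on ties. The highest group was compared with the lowest by the 2-fold rule. In the highest group Fn1 stood at 3020 and Vim at 1451 CPM in the medium tumor, and at 2655 and 2165 CPM in the large. The next of the 12 genes there were Tgfb1, at 181 CPM in the medium, and Wnt5a, at 103 CPM in the large tumor. The ranking thus rested mainly on Fn1 and Vim.

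Of 7 claudins of the medium tumor 2 were lower in the highest mesenchymal group, against 6.53% of 10674 genes, and 2 were higher, against 11.4%. From the lowest to the highest group Cldn7 stood at 532, 353, 226, 197 and 225 CPM, a ratio of 0.423 (0.389 to 0.459). Cldn2 stood at 215, 217, 148 and 135 CPM in the lower 4 groups and was lowest in the highest, a ratio of 0.465 (0.409 to 0.529). Cldn6 stood at 107, 168, 215, 228 and 285 CPM, a ratio of 2.66 (2.35 to 3.02), the one member with an increase at each step. Cldn4 stood at 79.7, 61.1, 54.3, 82.8 and 188 CPM, a ratio of 2.36 (2.03 to 2.74), which came from the last group. Cldn3 was at 300, 198, 134, 161 and 286 CPM, and its ratio of 0.952 (0.871 to 1.04) held 1. Cldn18 was at 37.6, 35.1, 58.4, 77.7 and 25.5 CPM, highest in the fourth group, and its ratio of 0.679 (0.514 to 0.897) was above 1 at a resolution of 1.2 (1.41), without the highest Scrublet scores (1.56) and with 3 groups (1.45).

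The lowest and the highest group were made of different clusters and differed in depth. In the medium tumor the lowest group was 46.9% gastrokine-led and 26.2% Tff3-led cells, with a median of 4914.0 UMIs, and the highest 35.1% Inhba-led and 28.4% Krt17-led cells, with 6464.0. Without the Krt17-led cluster the ratio of Cldn4 turned to 0.768 (0.633 to 0.930), that of Cldn3 was 0.440, that of Cldn7 0.222 and that of Cldn6 1.85, and no claudin was called higher. Without the Inhba-led cluster Cldn2 was at 0.558 and Cldn7 at 0.538, which ends both calls, and Cldn6 was at 3.52 and Cldn4 at 2.79. The calls of Cldn2 and Cldn7 also ended at a clustering resolution of 1.2 (0.555 and 0.538) and without the cells in the highest 5% of Scrublet doublet scores (0.540 and 0.542), and that of Cldn4 ended with 3 groups in place of 5 (1.93). Of the claudins called in the medium tumor, only Cldn4 turned direction, and the other calls ended or held with the cluster left out.

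Of 7 claudins of the large tumor 4 were lower in the highest mesenchymal group, against 12.5% of 4365 genes, and 0 were higher, against 11.6%. Cldn7 stood at 196, 197, 163, 62.8 and 11.7 CPM, a ratio of 0.0598 (0.0187 to 0.148). Cldn3 stood at 206, 189, 173, 48.7 and 25.8 CPM, a ratio of 0.125 (0.0593 to 0.240). Cldn4 stood at 122, 104, 84.6, 54.7 and 14.0 CPM, a ratio of 0.116 (0.0398 to 0.277). The 3 sealing claudins were therefore lowest in the same group. Cldn15 had a ratio of 0.0693 (0.00160 to 0.487). It passed the minimum only through the Fabp1-led cluster, which made up 34.4% of the lowest and 1.65% of the highest group. The call of Cldn15 is therefore a description, and without it the claudins called lower were Cldn3, Cldn4 and Cldn7. Cldn2 stood at 169, 167, 163, 118 and 93.6 CPM, a ratio of 0.555 (0.357 to 0.858) that did not reach the fold, Cldn6 had a ratio of 1.68 (0.880 to 3.40) and Cldn18 of 0.955. The Ramp1-led cluster made up 75.7% of the highest group, with a median of 1449.0 UMIs, and the lowest group was 34.4% Fabp1-led and 18.4% Muc2-led cells, with 920.0. Without the Ramp1-led cluster the ratio was 0.211 (0.118 to 0.363) for Cldn7, 0.283 (0.166 to 0.469) for Cldn3 and 0.361 (0.193 to 0.660) for Cldn4. The interval of Cldn15 then held 1 (0.337, 0.0723 to 1.32), and Cldn6 was called higher at 2.18 (1.16 to 4.38).

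**Figure D5:**
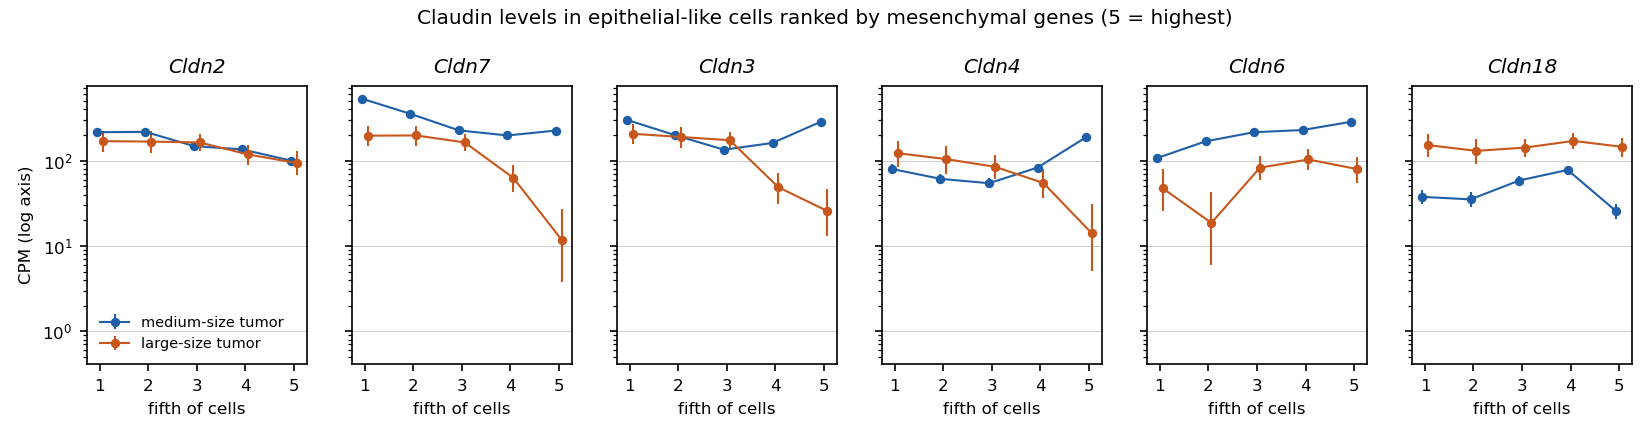
Level in CPM, on a logarithmic axis, of 6 claudins in 5 equal groups of epithelial-like cells ordered by the share of UMIs from 12 mesenchymal genes, in the medium and the large tumor, with exact 95% Poisson intervals as bars. Cldn7 goes from 532 to 225 CPM in the medium and from 196 to 11.7 CPM in the large tumor, and Cldn4 goes from 79.7 to 188 CPM in the medium and from 122 to 14.0 CPM in the large.

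Markers of other cell types moved with this ranking as well. In the large tumor, from the lowest to the highest group, the summed level of 10 epithelial markers went from 7487 to 3483 CPM. The 10 stromal markers went from 8 UMIs, 27.0 CPM, to 28 UMIs, 65.5 CPM. Of these 28 UMIs, Col3a1 had 9, Col1a1 6, Col1a2 4, Fbln1 4, Postn 3 and Col6a3 2, and Dcn, Lum, Pdgfra and Dpt were at 0. The 11 endothelial markers went from 11 UMIs, 37.1 CPM, to 50 UMIs, 117 CPM, of which Flt1 had 47, Pecam1 2 and Eng 1, and the other 8 were at 0. The macrophage markers went from 206 to 269 CPM, with Cd68 and Adgre1 at 0 in the highest group. In the medium tumor the epithelial sum went from 16841 to 12758 CPM, the macrophage sum from 324 to 552 CPM, the stromal sum from 26.4 to 28.9 CPM and the endothelial sum from 45.5 to 72.9 CPM. The part of these in the claudin values was not tested.

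Partners of the claudins in the tight junction were counted from lists of 13 membrane proteins and 18 scaffold proteins. In the medium tumor 7 of 11 membrane genes over the minimum varied 4-fold between epithelial-like clusters (median fold 9.84), and 6 of 17 scaffold genes did (median 3.11), beside 28.9% of all genes and their median of 2.78. Without the Inhba-led cluster these were 6 of 11 (median 5.72) and 4 of 16 (median 2.62), beside 24.4% of all genes and a median of 2.54. In the large tumor they were 3 of 6 (median 3.91) and 6 of 12 (median 4.40), beside 38.1% of all genes and a median of 3.58. Occludin (Ocln), which spans the membrane beside the claudins, ran from 73.1 CPM (59.4 to 89.1) in the Dmbt1-led to 6.93 CPM (4.17 to 10.8) in the Yap1-led cluster, a fold of 10.6. The folds of the scaffold proteins that anchor claudins to actin were 17.8 for Tjp3, 2.04 for Tjp1 and 7.65 for cingulin (Cgn). The polarity protein Crb3 had 9.82 and the adhesion molecule F11r 2.32. Without the Inhba-led cluster, the lowest for Tjp3, Tjp1, Cgn and Crb3, the folds were 7.80 for Tjp3, 1.75 for Tjp1, 1.99 for Cgn and 2.75 for Crb3, which ends the calls of Cgn and Crb3.

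Along the mesenchymal ranking 3 of 11 membrane genes (Ocln, Marveld3 and Esam) and 1 of 17 scaffold genes (Tjp3) were lower in the medium tumor, beside 6.53% of all genes, and 4 of 6 (Ocln, Marveld2, F11r and Cxadr) and 3 of 12 (Cgn, Pard6b and Crb3) in the large, beside 12.5%. Without the cluster of 3 epithelial markers these were 0 of 11 and 1 of 16 (Tjp3) in the medium tumor, beside 4.88%, and 1 of 6 (Ocln) and 1 of 10 (Pard6b) in the large, beside 433 of 3616 genes. Ocln had a ratio of 0.433 in the medium and 0.0315 in the large tumor, and of 0.527 and 0.258 without those clusters. Tjp3 had 0.173 and Marveld3 0.426 in the medium tumor, and 0.242 and 0.548 without the Inhba-led cluster. The ratios of Tjp1 were 0.994 and 0.721, and those of Lsr, a protein of tricellular corners, 0.872 and 0.509. In the other direction 1 membrane gene (Jam2) and 2 scaffold genes (Mpdz and Amotl1) were higher in the medium, beside 11.4% of all genes, and 1 scaffold gene (Amotl1) in the large tumor, beside 11.6%. Without the cluster of 3 epithelial markers they were Jam2, Ildr2 and Amotl1 in the medium tumor, beside 8.66%, and 0 genes in the large, beside 9.04%. Esam, Jam2, Ildr2 and Mpdz were lower in epithelial-like than in other cells of the medium tumor, with ratios of 0.0692, 0.357, 0.192 and 0.378. Esam is also one of the endothelial markers, and its call rests on 17 UMIs in the lowest and 8 in the highest group. Between the tumors 1 of 11 membrane genes (Ocln, 2.04-fold) and 3 of 17 scaffold genes (Pard6b 4.15, Prkci 2.40 and Mpdz 2.23) were higher in the large, beside 6.86% of all genes. On the lower side were 2 of 11 (Marveld3 at 0.389 and Ildr2 at 0.117) and 3 of 17 (Tjp3 at 0.261, Sympk at 0.210 and Cgnl1 at 0.494), beside 19.0%.

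Genes with the most similar pattern were found over all 14 clusters of the medium tumor among 7823 genes, and the r of the same pair over the 10 clusters of the large tumor is given second. For Cldn2 they were Slc39a4 (0.973 and 0.836), Sdcbp2 (0.971 and 0.870) and Spint2 (0.966 and 0.765). For Cldn7 they were Paqr5 (0.979 and 0.544), S100a14 (0.974 and 0.822) and Crb3 (0.968 and 0.931). For Cldn3 they were Hoga1 (0.965 and -0.060), Mapk13 (0.963 and 0.915) and Tax1bp1 (0.952 and 0.429). Hoga1 had 3 UMIs in the large tumor, so its second value cannot show whether the pattern recurred. For Cldn4 they were Sfn (0.934 and 0.875), Wnt7a (0.924 and 0.231) and Ip6k2 (0.918 and 0.005). For Cldn6 they were Srd5a1 (0.946 and 0.327), Ccnd1 (0.944 and 0.598) and Ddx47 (0.927 and 0.787), and for Cldn18 Aldh3a1 (0.921 and 0.577), Gm8730 (0.912 and 0.453) and Yap1 (0.910 and -0.159). The clusters of a tumor share a library, and the values are descriptions.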

How the data were processed

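Droplet-based 3′ single-cell libraries of 1 medium and 1 large KPC tumor were used. The authors aligned reads to mm10 and counted UMIs with Cell Ranger, per the submitters' processing notes (version not given in the sources used here), and deposited raw counts per gene and cell, with the 4 technical replicates of a tumor pooled in 1 table. Depth was 20301669 UMIs in the medium and 2239012 in the large tumor. All deposited cells were kept. Scrublet called 0 and 9 doublets (0 and 0.587%), and none were removed.

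Each tumor was log-normalised (scale 10000) and clustered in Seurat 5.3.0 (R 4.3.3) on the 2000 most variable genes without claudins, with 10 principal components and a resolution of 0.8. A cluster was named from at least 3 markers, each in at least 10% of its cells and at 25% or more of the highest cluster's level. It stayed unnamed when another class had at least 3 markers and a detected share of its list at 60% or more of the best class's share. A cluster far shallower than its tumor also stayed unnamed unless a marker of its class was among its leading genes. Leading genes were the 10 of largest ratio to other cells, with 10 CPM added, seen in at least 25% of cells.

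UMI sums per group (Python 3.11.15, scanpy 1.11.5, scipy 1.17.1) were compared with exact conditional binomial intervals of the ratio, after a minimum of 50 UMIs. No p-values were computed, since n is 1 per size. A ratio against 0 UMIs was set against 3. The calling was tested on simulated counts. Alternatives included edgeR 4.0.16 TMM factors (0.977 and 1.023), other resolutions, 20 components, thinning and leaving out clusters, some of them chosen after seeing the data.

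Named genes were all 10 members, other claudins with 50 UMIs, fixed tight junction lists and, for members with 200 UMIs, the 3 genes most alike. The members and lists were chosen with earlier results of these data known. Promoter sequences were from RefSeq (GRCm38.p6), in which all 10 genes matched. One allele of the mice and 1 scaffold gene are not reported here.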

Additional observations from a re-analysis of the deposited data

Results flagged for a closer look

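Cldn4 stood out because its direction along the mesenchymal ranking was opposite in the 2 tumors. Its level in the highest group of epithelial-like cells was 2.36 times that in the lowest group in the medium tumor and 0.116 times in the large tumor. The difference between the tumors was not tested, since each is 1 sample. Without the Krt17-led cluster of the medium tumor its ratio there was 0.768.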

How the results depend on the processing

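Of 114 recomputed counts of claudins called, 103 stayed within 1.5 times the reported count. Of 559 recomputed values of single claudins, 433 kept their side of the threshold and 1 called value turned direction: Cldn4 along the mesenchymal ranking of the medium tumor, 0.768 without the Krt17-led cluster. The claudins lower in the highest mesenchymal group of the medium tumor went from 2 to 0 at a resolution of 1.2, without the cells in the highest 5% of Scrublet scores, and without the cluster named from 3 markers. Those higher there went from 2 to 1 with 3 groups in place of 5 and to 0 without the Krt17-led cluster. In the large tumor the claudins higher in the highest group went from 0 to 1 at a resolution of 1.2, with 3 groups, without the highest 5% of Scrublet scores, and without the cluster named from 3 markers. Without the clusters led by enterocyte or goblet genes, the claudins varying between clusters of the large tumor went from 7 to 3. Those higher there than in the medium tumor went from 2 to 1. The cause of these changes was not tested, and the shares of all genes called without these clusters are not given here. The counts of claudins higher in epithelial-like cells ran from 6 to 7 over 11 alternatives in the medium and from 5 to 7 over 10 in the large tumor, and those lower in the large tumor from 2 to 3 over 13.

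At these depths Cldn1, Cldn5 and Cldn12 were under 50 UMIs in the large tumor, with a median of 1037.0 UMIs per cell, and Cldn1 and Cldn15 in the medium tumor. No paired analysis was possible because the technical replicates of each tumor are pooled in 1 table and its columns carry no replicate number.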

Other observations

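Claudins outside the list were rare. Of the other 23 claudin rows, 14 had no UMI in the medium tumor, 8 had 1 to 49, and 1, Cldn23, had 247. In the large tumor 18 had none and 4 had 1 to 49, with Cldn23 again above 50. Cldn23 stood at 26.8 CPM (21.7 to 32.9) in the gastrokine-led and 24.6 CPM (17.0 to 34.6) in the Dmbt1-led cluster of the medium tumor, whose intervals overlapped, and between 5.17 and 14.8 CPM in the other epithelial-like clusters. In the large tumor 39 of its 60 epithelial-like UMIs lay in the Fabp1-led cluster, at 196 CPM (139 to 268), the cluster that also held most Cldn15. The Ramp1-led and cycling clusters had none. Over all epithelial-like cells the ratio of the large to the medium tumor was 2.34 (1.74 to 3.12). Cldn23 passed 50 UMIs in the large tumor only through the Fabp1-led cluster. This ratio thus rests on that cluster and is a description.

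The mesothelial-like cells of the medium tumor, named for the lining of the abdominal cavity, held 26 of the 39 UMIs of Cldn10, at 66.4 CPM (43.4 to 97.3). Cldn10, a pore-forming claudin of kidney and glands, was at 0.664 CPM in epithelial-like cells. It was named after its values were seen. Cldn9, the neighbour of Cldn6, had 32 UMIs in the medium tumor (1.58 CPM).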
